A study of Mus musculus with 6 samples.

Results

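The genes described here are 33 genes of the lysosome, taken from a fixed list of acid hydrolases, lumenal cofactors, membrane proteins, mucolipin channels, proton pump subunits and the transcription factor Tfeb. Each gene was read from probe sets that the array annotation gives a single gene symbol, and the probe set with the highest mean over the 6 arrays stood for the gene. All 33 had such a probe set, among 18193 genes with a single symbol, and all 33 were bright enough to be tested. The arrays measured total RNA of mouse primary microglia, the resident macrophages of the brain, in 3 cultures labelled Dap12-ko, here called Dap12-deficient, and 3 labelled wt, here called wild-type. Dap12 is the signalling adaptor encoded by Tyrobp, which links Trem2 and other myeloid receptors to Syk kinase. The sources used here do not give the deletion, strain, age and sex of the animals, the treatment of the cultures or the animals behind each culture, and p-values therefore measure only the spread between these cultures. The titles carry 1 number for some cultures and a joined pair for others, with no word on what they stand for. Each array is counted here as 1 culture, which the titles do not state.

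Lysosomes degrade material that microglia take up by phagocytosis, such as myelin, apoptotic cells and protein aggregates. Soluble hydrolases work at the acid pH set by the vacuolar proton pump, glycosylated membrane proteins line the organelle, and mucolipins release calcium and other cations from it. The MiT factors, Tfeb among them, bind an E-box variant in the promoters of many lysosomal genes and raise them together when mTORC1, a kinase complex at the lysosome surface, is inactive.

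Tyrobp separated the groups, with 5396 to 7271 on the wild-type and 96.2 to 125 on the Dap12-deficient arrays. All values are linear signals that the authors scaled to the same trimmed mean on each array. Median signals of all probe sets were 11.9 to 14.0 on wild-type and 14.6 to 16.5 on Dap12-deficient arrays. All 10 microglia markers were detected above the signal needed for testing. Their summed signal was 17116 to 23997 in wild-type cultures against 14056 to 20085 where Dap12 was lacking, and the growth factor receptor Csf1r was the brightest of them. The log2 difference, Dap12-deficient minus wild-type, was below 0 for 9 of these 10 markers, with a median of -0.32. Other cells were present too. Summed over 9 oligodendrocyte markers, led by Mbp, the signal was 5607 to 9001 in wild-type cultures against 1540 to 6819, and 9 of 9 were below 0. Summed over 9 astrocyte markers, led by S100b, it was 525 to 950 and 462 to 1466, and 8 of 9 were above 0, with S100b (-1.04) the exception. Neuron markers, led by Map2, summed to 390 to 497 and 310 to 411, and 3 of 7 tested were above 0. Fibroblast markers, led by Postn, summed to 113 to 212 and 115 to 155. Of 5 tested fibroblast markers 4 were above 0, with Postn (-1.03) the exception. Slc17a7, Lum and Pdgfrb were below the signal needed for testing. What part these cells have in the differences below was not tested. In RNA of whole cultures, fewer cells of a type and less RNA per cell cannot be told apart.

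The signals of most lysosomal genes overlapped between the groups, and a pair of mucolipin genes stood out. Mcoln3 and Mcoln2, which encode endolysosomal cation channels, were brighter on each Dap12-deficient array than on the brightest wild-type one. Ppt1, the thioesterase that removes palmitate from proteins, was the 1 member with all Dap12-deficient arrays below wild-type. The other 30 overlapped between the groups. With limma, 0 of 33 members passed an adjusted p under 0.05, against 2 of all 27022 tested probe sets (0.0074%). At an unadjusted p under 0.05 there were 2 members higher, Mcoln2 and Mcoln3, against 4.76% of all 12875 genes with 1 tested probe set each, and 0 lower, against 4.87%. Arrays that did not overlap were found for 2 members above wild-type, where 7.54% of all genes lay above, and for 1 below, where 8.85% lay below. The shares of members are close to these backgrounds. The count of 2 was 4 without Dap12-deficient replicate 2, with Ppt1 and Atp6v0d1 added as lower.

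The members' log2 differences, Dap12-deficient minus wild-type, had a median of -0.03, and the median over all genes was also -0.03. Differences were taken after adding 16 to the signal, which understates those of dim genes. Of 33 members, 14 were above 0 and 19 below, against 16 and 17 after quantile normalization and 6 and 27 when arrays were given a common median, which moved the median of all genes to -0.15 and left 29.8% of them above 0. The members' median was -0.14 on that scale. Standard errors were between 0.17 and 0.28. For 31 of 33 members the 95% interval of the difference lay within -1 and 1, and the exceptions were Mcoln2 and Mcoln3.

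**Figure D1:**
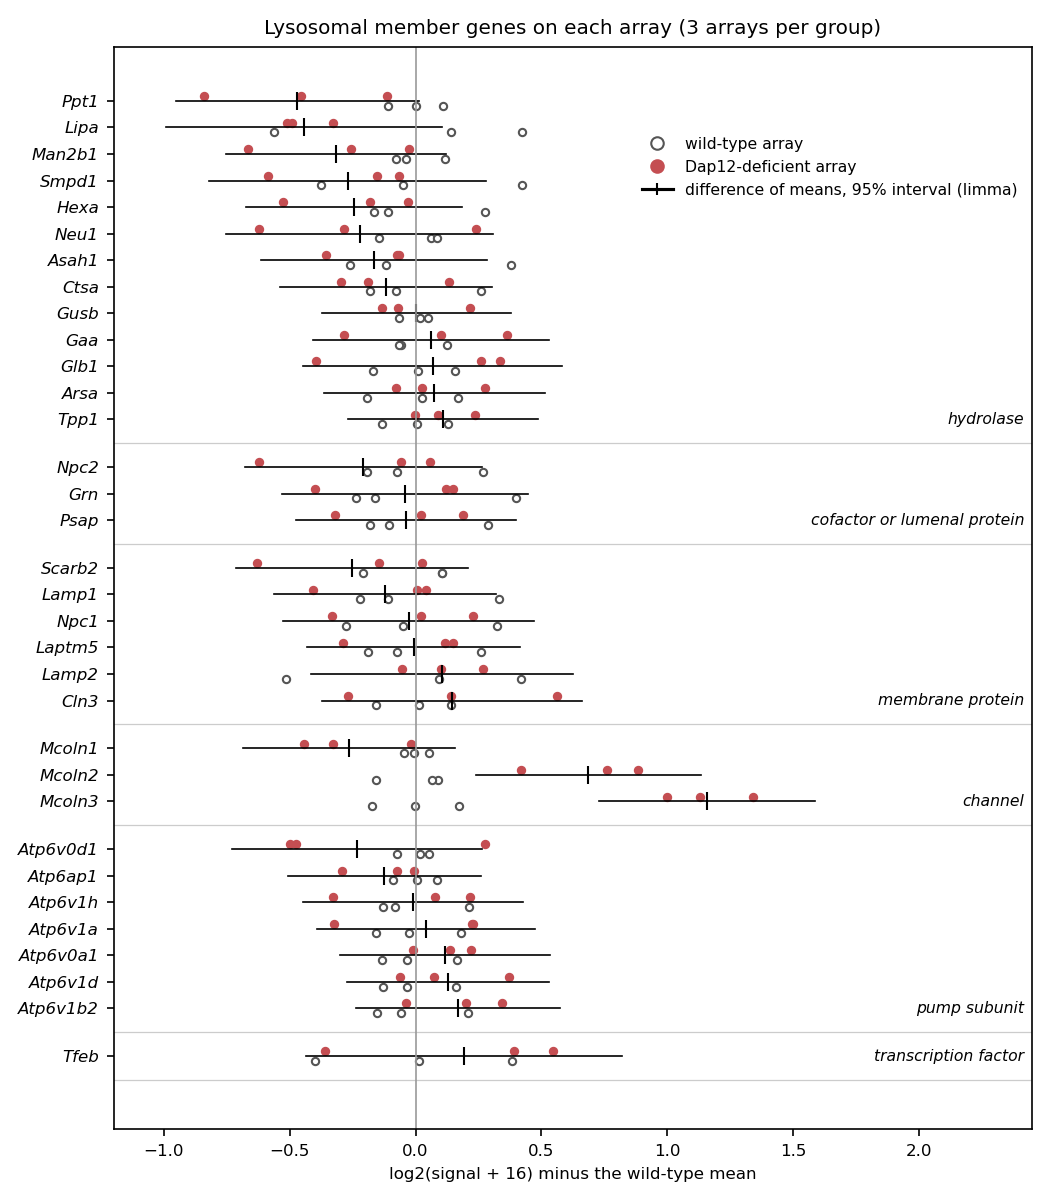
Each row is 1 lysosomal gene, grouped by role, and the horizontal axis is log2(signal + 16) minus the mean of the 3 wild-type arrays. Open circles are wild-type arrays, filled circles Dap12-deficient arrays, and the tick with its line is the difference of means with its 95% limma interval; Mcoln3 (1.16) and Mcoln2 (0.69) lie apart from the other 31 genes, which have differences between -0.47 and 0.19.

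The mucolipins are cation channels of endosomes and lysosomes. Mcoln1 is expressed widely and releases lysosomal calcium, whereas Mcoln2 and Mcoln3 have a narrower distribution, with Mcoln2 known from immune cells. In wild-type cultures 1, 2 and 3 the signal of Mcoln3 was 16, 20.1 and 12.4, and in the Dap12-deficient cultures it was 65.1, 54.2 and 48.0 in the same order. The groups were well separated, and the wild-type signals lay near the median of all probe sets on those arrays. Means were 16.2 ± 3.85 (SD, n = 3) and 55.8 ± 8.68 (SD, n = 3). Without detection calls the wild-type signal is not shown to be above background, so no ratio is given, and the log2 difference depends on the constant added (1.74 with 1, 0.58 with 64). The log2 difference was 1.16 (SE 0.19, 95% interval 0.73 to 1.59) and did not pass after adjustment (adjusted p = 0.179 in limma). A dimmer probe set of Mcoln3, too dim for the test, gave 5.48, 2.24 and 5.76 in wild-type against 12.1, 14.1 and 7.38 in Dap12-deficient cultures, again without overlap, with a log2 difference of 0.41.

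Mcoln2 was measured by a single probe set, which gave 93.4, 76.3 and 91.6 in wild-type against 174, 158 and 121 in Dap12-deficient cultures. All 3 Dap12-deficient arrays were above the highest wild-type array. The means of 87.1 ± 9.40 (SD, n = 3) and 151 ± 26.8 (SD, n = 3) gave a ratio of 1.73 and a log2 difference of 0.69 (SE 0.20, adjusted p = 0.335 in limma). Mcoln1 did not share this direction. Its brightest probe set gave 512, 477 and 492 in wild-type against 358, 487 and 389.7 in Dap12-deficient cultures, so that the groups overlapped through Dap12-deficient array 2. The log2 difference was -0.26 (SE 0.19, adjusted p = 0.643 in limma), and the other probe sets of Mcoln1 gave -0.05 and -0.42. The probe set at -0.42 was dim, with 33.3, 47.9 and 47.0 in wild-type against 29.3, 32.6 and 21.6 in Dap12-deficient cultures, without overlap. The signs of all mucolipin probe sets named here were the same after quantile normalization and with a common median.

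**Figure D2:**
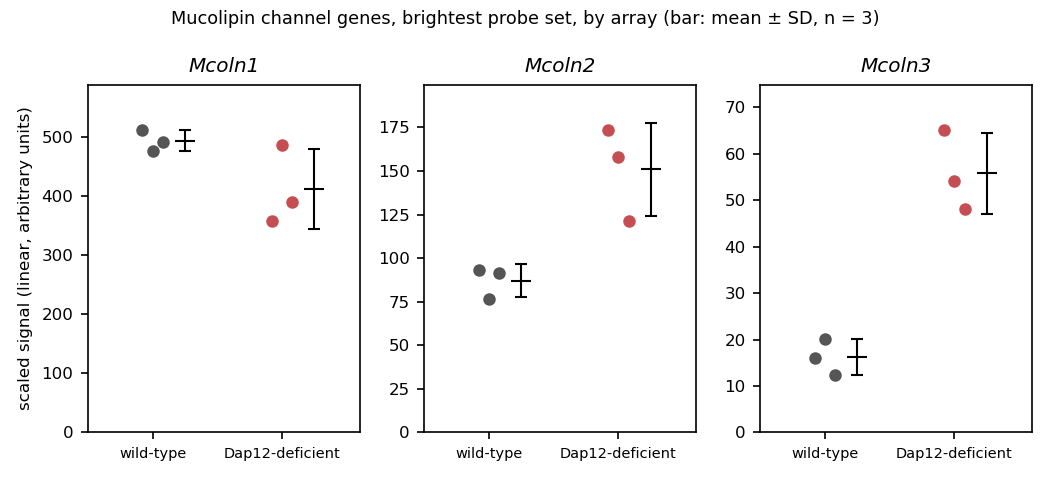
Scaled linear signal of the brightest probe set of each mucolipin gene on each array, with the mean and SD of 3 arrays beside the points. All Dap12-deficient arrays lie above the wild-type arrays for Mcoln2 (121 to 174 against 76.3 to 93.4) and Mcoln3 (48.0 to 65.1 against 12.4 to 20.1), while the groups overlap for Mcoln1.

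The log2 differences of the oligodendrocyte markers, given above, were all below 0, but their summed signals overlapped between the groups. With a term for 5 myelin genes in the model, the log2 differences were 0.97 for Mcoln2 and 1.25 for Mcoln3, above those without it. The labels give no sex. A score of the Y-linked genes Eif2s3y, Kdm5d and Uty, centred over the arrays, was -1.22 to -0.34 on Dap12-deficient and 0.57 to 0.84 on wild-type arrays, so that it did not overlap between the groups. With this score as a term, the log2 difference was 0.63 (SE 0.56, adjusted p = 0.796 in limma) for Mcoln3. For Mcoln2 it was -0.055 (SE 0.55, adjusted p = 0.986 in limma). Without the term the SEs were 0.19 for Mcoln3 and 0.20 for Mcoln2. The score and the Dap12 groups cannot be told apart in these arrays, and this fit does not settle the sign of Mcoln2. Under each of the other 17 alternatives both differences were above 0, between 0.50 and 0.97 for Mcoln2 and between 0.58 and 1.74 for Mcoln3. The lowest adjusted p of Mcoln3 was 0.0514, without Dap12-deficient replicate 2.

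Mcoln3 and Mcoln2 are neighbouring protein-coding genes on chromosome 3 in the RefSeq annotation of GRCm38.p6. The gene before Mcoln3, Wdr63, had a log2 difference of -0.09. Its mean signal over all arrays was 8.63, barely above the 8.51 needed for testing. The constant added to the signal understates differences of genes this dim, so the value does not show that Wdr63 was unchanged. Lpar3, the gene after Mcoln2, was too dim to test, with 4.56 in wild-type against 5.50 in Dap12-deficient cultures. The 250 bases before the RefSeq start sites of the mucolipin genes are shown to compare the pair with non-overlapping arrays with Mcoln1. Capitals mark the E-box CACGTG, with a T before it or an A after it where present, since CACGTGA is TCACGTG read on the other strand.
Mcoln3 (chr3:146121541-146121790, + strand): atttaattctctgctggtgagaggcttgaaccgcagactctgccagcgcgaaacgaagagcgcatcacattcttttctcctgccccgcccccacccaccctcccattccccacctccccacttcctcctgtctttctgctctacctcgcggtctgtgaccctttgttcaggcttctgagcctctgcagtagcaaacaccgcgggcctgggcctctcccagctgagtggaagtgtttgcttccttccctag
Mcoln2 (chr3:146149924-146150173, + strand): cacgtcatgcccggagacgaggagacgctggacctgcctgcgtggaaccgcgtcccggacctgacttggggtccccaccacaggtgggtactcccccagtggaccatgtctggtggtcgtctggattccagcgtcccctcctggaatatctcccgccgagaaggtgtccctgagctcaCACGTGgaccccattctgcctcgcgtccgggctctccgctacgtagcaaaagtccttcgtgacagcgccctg
Mcoln1 (chr8:3500269-3500518, + strand): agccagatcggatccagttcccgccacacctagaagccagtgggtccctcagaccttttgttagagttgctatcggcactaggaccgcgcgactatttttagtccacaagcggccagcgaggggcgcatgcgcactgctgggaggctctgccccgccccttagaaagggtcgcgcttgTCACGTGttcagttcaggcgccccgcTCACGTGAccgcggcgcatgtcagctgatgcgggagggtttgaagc
The promoter of Mcoln1 holds 2 matches to TCACGTG, read on both strands, and that of Mcoln2 holds 1 match to CACGTG without the flanking T or A. The window of Mcoln3 holds 0 matches. TCACGTG contains CACGTG, so matches to the longer motif count for both. A match is a description of the letters only.

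Over windows from 250 bases before to 50 after the start site, 29 of 33 members had a RefSeq promoter, and Npc1, Asah1, Atp6v1b2 and Atp6v1h did not match. TCACGTG was found in 9 of 34 member promoters, all of different genes, against 3.77% of all 32851 promoters. CACGTG was found in 10 of 34, against 7.15%. The matches of the other 8 genes with TCACGTG are shown with 10 bases on each side. The motif was found in 9 of the 29 members with a promoter. Members were chosen as lysosomal genes, many of which are known to carry such an E-box. Their larger share is therefore not independent of that choice.
Ctsa (chr2:164833750-164833794, + strand): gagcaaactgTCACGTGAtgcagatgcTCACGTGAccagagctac
Glb1 (chr9:114401019-114401045, + strand): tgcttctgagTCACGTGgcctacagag
Gaa (chr11:119267812-119267838, + strand): ttctgtgcgaTCACGTGtttgactctg
Arsa (chr15:89477425-89477451, - strand): caactcagtgTCACGTGttgtctgctc
Lamp1 (chr8:13159089-13159161, + strand): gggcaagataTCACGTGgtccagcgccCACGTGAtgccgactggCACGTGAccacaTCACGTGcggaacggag
Cln3 (chr7:126583369-126583395, - strand): aaccctcaagCACGTGAtggaaggctc
Cln3 (chr7:126583341-126583368, - strand): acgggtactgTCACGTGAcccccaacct
Atp6v1a (chr16:44139374-44139401, - strand): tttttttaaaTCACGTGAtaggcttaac
Atp6v0d1 (chr8:105566051-105566078, - strand): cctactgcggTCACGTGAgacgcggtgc
Lamp1 carries 4 matches in a single stretch. The 9 genes with TCACGTG had a median log2 difference of 0.04, between -0.26 (Mcoln1) and 0.14 (Cln3), and the 20 members without it a median of -0.04. The members furthest from 0, Mcoln3, Mcoln2, Ppt1 and Lipa, are among those without it, and the difference between both sets was not tested.

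Acid hydrolases were 13 of the members, and 0 passed an adjusted p under 0.05. Their median log2 difference was -0.17, with 5 above 0 and 8 below, 0 and 13 with a common median. Ppt1, whose loss causes a neuronal ceroid lipofuscinosis, gave 636, 742 and 689 in wild-type against 498, 634 and 376 in Dap12-deficient cultures. The groups touched closely, with Dap12-deficient array 2 just below wild-type array 1. The means were 689 ± 53.0 (SD, n = 3) and 503 ± 129 (SD, n = 3), with a log2 difference of -0.47 (SE 0.22, adjusted p = 0.482 in limma). It was -0.28 without Dap12-deficient replicate 3. A dimmer probe set of Ppt1 gave the same order without overlap, with 575 to 660.4 against 454 to 510.0 and a log2 difference of -0.33, and another, with mean signals of 15.5 and 21.9, gave 0.27.

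Lipa, the acid lipase that hydrolyses cholesteryl esters and triglycerides, was next in size. Its brightest probe set gave 1485, 1811 and 906 in wild-type against 939, 1070.5 and 953 in Dap12-deficient cultures. Wild-type array 3 lay below all Dap12-deficient arrays, with a log2 difference of -0.44 (SE 0.25, adjusted p = 0.557 in limma). It was -0.72 without wild-type replicate 3 and -0.23 without wild-type replicate 2. A dimmer probe set with less spread, at 240.2, 302 and 243 against 188, 176 and 112, did not overlap and gave -0.69 (SE 0.23, adjusted p = 0.362 in limma). The remaining probe set of Lipa gave 0.26, with 508 on Dap12-deficient array 1 against 128 and 74.1 on the others.

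The lysosomal mannosidase Man2b1 had 2849.8 ± 207 (SD, n = 3) in wild-type against 2322 ± 505 (SD, n = 3) in Dap12-deficient cultures, a log2 difference of -0.31. The acid sphingomyelinase Smpd1 had 143 ± 45.2 and 114 ± 23.8 (SD, n = 3), a difference of -0.27. Hexa, a subunit of the hexosaminidase that degrades gangliosides, had 5508 ± 953 and 4647 ± 795 (SD, n = 3), a difference of -0.25. The sialidase Neu1 had 188 ± 17.5 and 164 ± 55.3 (SD, n = 3), a difference of -0.22. The acid ceramidase Asah1 had 4005 ± 976 and 3519.8 ± 394 (SD, n = 3), a difference of -0.17. In all 5 genes the groups overlapped, and the spread between arrays was as large as the difference between groups or close to it.

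The remaining hydrolases lay nearer to 0. Ctsa, the carboxypeptidase that protects Glb1 and Neu1 in a complex, had 3734 ± 622 and 3440.3 ± 552 (SD, n = 3), a log2 difference of -0.12. Glb1, the beta-galactosidase itself, had 399.6 ± 46.6 and 428 ± 113 (SD, n = 3), a difference of 0.07. The acid alpha-glucosidase Gaa, which degrades glycogen, had 417 ± 32.7 and 442 ± 101 (SD, n = 3), a difference of 0.06. The beta-glucuronidase Gusb had 3037 ± 125 and 3060.3 ± 408 (SD, n = 3), so that its means differed by a ratio of 1.01. Arsa, the sulphatase of the myelin lipid sulphatide, had 195 ± 26.4 and 207 ± 28.5 (SD, n = 3), a difference of 0.07. The peptidase Tpp1 had 1982 ± 182 and 2136 ± 181 (SD, n = 3), a difference of 0.11. Their limma adjusted p lay between 0.849 and 0.996. For Gusb the 95% interval was -0.37 to 0.38, which bounds a change in either direction.

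The lumenal cofactors showed the same overlap. Psap, the precursor of the saposins that present lipids to hydrolases, had 4691 ± 850.1 and 4573 ± 802 (SD, n = 3), a log2 difference of -0.04. Progranulin, encoded by Grn and needed for lysosomal function in microglia, had 6786 ± 1737 and 6553 ± 1312 (SD, n = 3), a difference of -0.04. Npc2, which carries cholesterol from the lumen to Npc1, had 6487 ± 1108 and 5677 ± 1325 (SD, n = 3), a difference of -0.21. The limma adjusted p of these 3 genes was 0.754 to 0.962.

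Membrane proteins were 6 of the members, with differences between -0.25 and 0.14 and all groups overlapping. Lamp1 and Lamp2 are heavily glycosylated proteins that line the lysosomal membrane. Lamp1 had 6734 ± 1419.5 and 6167 ± 1010.3 (SD, n = 3), a log2 difference of -0.12. Lamp2 had 3457 ± 1076 and 3609 ± 404 (SD, n = 3), a difference of 0.11, and its 4 tested probe sets gave -0.24 to 0.11. Scarb2, the receptor that carries glucocerebrosidase to the lysosome, had 2715 ± 332 and 2307 ± 517 (SD, n = 3), a difference of -0.25. Npc1, the cholesterol exporter of the lysosomal membrane, had 646 ± 142 and 632 ± 124 (SD, n = 3), a difference of -0.03. Cln3, mutated in juvenile Batten disease, had 461 ± 49.5 and 523 ± 154 (SD, n = 3), a difference of 0.14. Laptm5, a lysosomal membrane protein of blood-derived cells that lowers antigen receptors, had 4905 ± 820.1 and 4884 ± 782 (SD, n = 3), a difference of -0.01. After quantile normalization 4 of the 6 were above 0, against 2 with signals as deposited and 1 with a common median.

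The vacuolar proton pump joins a membrane domain that passes protons to a peripheral domain that hydrolyses ATP. Its 7 members had log2 differences between -0.23 and 0.17, with 4 above 0 and 3 below, 2 and 5 with a common median. Atp6v1a, the catalytic subunit, had 5043 ± 609 and 5248 ± 1079 (SD, n = 3), a difference of 0.04. Atp6v1b2, its partner in the ATP-hydrolysing ring, had 2597 ± 349.8 and 2922 ± 382 (SD, n = 3), a difference of 0.17. Atp6v1d, part of the rotating stalk, had 2993 ± 315 and 3290.1 ± 518 (SD, n = 3), a difference of 0.13. Atp6v1h, a regulatory subunit, had 2465 ± 330.2 and 2462 ± 461 (SD, n = 3), a difference of -0.01. The brightest probe sets of these 4 peripheral subunits overlapped between the groups. A probe set of Atp6v1d of nearly equal signal did not, with 2813, 2877 and 2896 in wild-type against 3094, 3308 and 3039.9 in Dap12-deficient cultures, and gave 0.14 (SE 0.16, adjusted p = 0.783 in limma).

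In the membrane domain, Atp6v0d1, which couples the stalk to the proton ring, gave 2189, 2392 and 2334 in wild-type against 1626, 2795 and 1653 in Dap12-deficient cultures. Dap12-deficient array 2 was the highest of all 6 and the other arrays of that group the lowest, with a log2 difference of -0.23 (SE 0.22, adjusted p = 0.738 in limma). It was -0.49 without Dap12-deficient replicate 2, -0.099 without replicate 1 of that group and -0.11 without replicate 3. Atp6v0a1, the subunit through which protons pass, had 70.6 ± 9.26 and 77.7 ± 7.48 (SD, n = 3), a difference of 0.12. Atp6ap1, an accessory protein for pump assembly, had 1679 ± 103 and 1543 ± 158 (SD, n = 3), a difference of -0.12. Tfeb, the factor that drives lysosomal genes, was dim and variable, with 61.9, 84.7 and 42.6 in wild-type against 44.1, 85.2 and 96.7 in Dap12-deficient cultures. Its log2 difference was 0.19 with a 95% interval of -0.43 to 0.82, the widest among members. The array reports transcript and says nothing of where the protein lies.

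Members with several probe sets did not always give a single answer. The 33 genes had 76 probe sets, of which 69 were tested, and 22 genes had more than 1 tested. In 13 of these 22 the probe sets differed in sign, and in 7 they spanned over 0.5 in log2 difference. Of the 36 dimmer tested probe sets, 5 had an unadjusted p under 0.05 with higher and 1 with lower signal in Dap12-deficient cultures. Among all tested probe sets 7.05% were higher and 3.61% lower by that rule. The limma adjusted p of the 36 was at least 0.293.

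The 5 higher ones belong to Laptm5, Atp6v1a, Atp6v1h and Ctsa. A second probe set of Atp6v1a gave 936, 1049.6 and 735 in wild-type against 2039.7, 1243 and 1552 in Dap12-deficient cultures, without overlap, a log2 difference of 0.80 (SE 0.23) against 0.04 for the brightest. A probe set of Laptm5 gave 124, 252 and 138 against 703, 232 and 529, where Dap12-deficient array 2 overlapped wild-type, a difference of 1.36 (SE 0.38). Another of Laptm5 gave 48.9, 8.95 and 23.3 against 119, 67.7 and 73.2, a difference of 1.33 (SE 0.33). The dimmer probe set of Ctsa gave 28.8, 44.9 and 25.7 against 81.9, 62.7 and 69.8, a difference of 0.85 (SE 0.21). That of Atp6v1h gave 17.3, 16.9 and 16.1 against 59.4, 22.0 and 102, a difference of 1.09 (SE 0.34). In each of these 4 genes the brightest probe set had a difference between -0.12 and 0.04. The sources used here do not give the part of the transcript that each probe set reads.

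**Figure D3:**
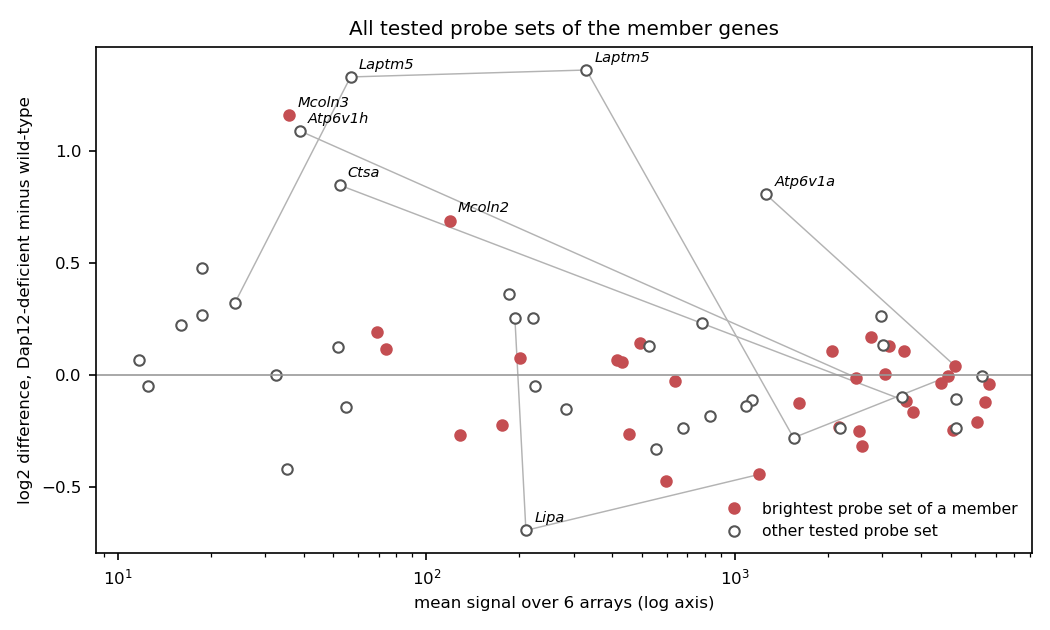
Each point is a tested probe set of a lysosomal member gene, with its mean signal over 6 arrays on a log axis and its log2 difference, Dap12-deficient minus wild-type; filled points are the brightest probe set of each gene. Grey lines join the probe sets of those genes named in the plot that have several; Laptm5 spans -0.28 to 1.36 and Atp6v1a 0.04 to 0.80.

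Members also varied together from array to array. Of 18 members with a mean signal over 2000, 12 had their lowest signal on Dap12-deficient array 3 and 9 their highest on wild-type array 2. Among all 460 genes over 2000 the counts were 205 (44.6%) and 177 (38.5%). The median deviation of the 18 members from the wild-type mean was 0.20 on wild-type array 2 and -0.32 on Dap12-deficient array 3, and 0.04 and -0.15 after quantile normalization. For all 460 genes over 2000 it was 0.11 and -0.19 on the same arrays, and 0.005 and -0.05 after quantile normalization. Of 10 microglia markers, 4 (Csf1r, Tmem119, Fcrls and Olfml3) were highest and lowest on these same arrays, and the other 6 had another order. The 15 members under 2000 behaved otherwise, with 6 at their lowest on Dap12-deficient array 1 and a median deviation of -0.28 there. The median coefficient of variation of members was 13.4% over wild-type and 17.5% over Dap12-deficient arrays.

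**Figure D4:**
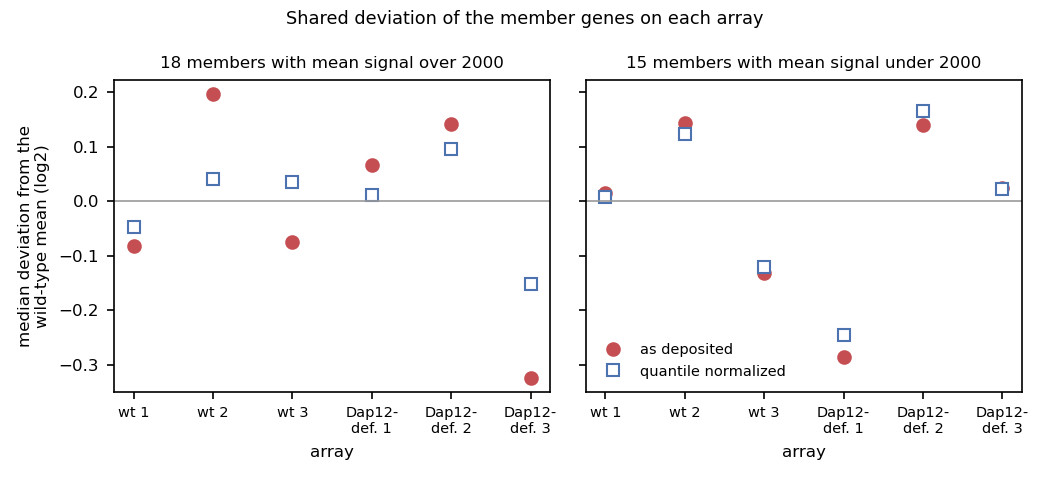
Median over member genes of log2(signal + 16) minus the gene's wild-type mean, for each of the 6 arrays (wt, wild-type; Dap12-def., Dap12-deficient), with signals as deposited (circles) and after quantile normalization (squares). In the left panel, of 18 members over a mean signal of 2000, Dap12-deficient array 3 is lowest (-0.32 as deposited, -0.15 normalized); in the right panel, of 15 members under 2000, Dap12-deficient array 1 is lowest (-0.28).

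The rest of the lysosomal pathway was read from a further list of 79 genes, of which 72 had a probe set of their own and 71 were tested. At an adjusted p under 0.05, limma called 0 of them. At an unadjusted p under 0.05, 5 were higher, where 4.76% of all genes were, and 2 lower, where 4.87% were, so that both shares are near the background. The total of 7 was 3 without wild-type replicate 2 and 4 without Dap12-deficient replicate 3. Their median log2 difference was -0.09, with 27 above 0 and 44 below. With a common median 16 were above and 55 below, where 29.8% of all genes were above 0. At an unadjusted p under 0.05, 2 were then higher, against 2.43% of all genes, and 10 lower, against 9.61%.

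Among 20 other hydrolases and cofactors, 7 were above 0 and 13 below, with a median of -0.17. Gla, the alpha-galactosidase deficient in Fabry disease, gave 834, 792 and 799 in wild-type against 1246, 1091 and 1424 in Dap12-deficient cultures. The groups did not overlap, with a log2 difference of 0.62 (SE 0.18, adjusted p = 0.335 in limma). With the term for Y-linked genes it was 0.80 (unadjusted p = 0.161 in limma). Arsb, a sulphatase of dermatan sulphate, gave 1401, 1849.7 and 1643 against 1182, 1152 and 943, again without overlap. Its difference was -0.57 (SE 0.19, adjusted p = 0.363 in limma), and -0.84 with the term for Y-linked genes (unadjusted p = 0.156 in limma). That term cannot be told apart from the groups. The osteoclast phosphatase Acp5 was dim, with 11.9 ± 4.92 and 24.6 ± 7.80 (SD, n = 3), a difference of 0.54. Legumain, encoded by Lgmn, had the widest spread, with 1009, 5788 and 2199 in wild-type against 3276, 5149 and 3280.4 in Dap12-deficient cultures.

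Cathepsins and cystatin C, 10 genes, had 1 above 0 and 9 below, with a median of -0.08. The inhibitor Cst3 had the smallest p at -0.37 (SE 0.19), followed by the protease Ctsh at -0.31 (SE 0.19). The osteoclast cathepsin Ctsk, dim at 17.0 to 19.8 against 20.5 to 25, was the 1 gene with arrays that did not overlap, at 0.14 (SE 0.18). Other membrane proteins and transporters, 14 genes, had 6 above and 8 below, with the macrophage marker Cd68 at -0.45 (SE 0.24) and the chloride transporter Clcn7 at 0.30 (SE 0.19). Other pump subunits, 11 genes, had 5 above and 6 below, with Atp6v0d2, known from osteoclasts, at -0.44 (SE 0.27) and Atp6v1e1 at 0.21 (SE 0.19). In these 3 lists 0 genes had an unadjusted p under 0.05. With a common median 2 cathepsin genes and 1 membrane gene did, all lower, on a scale where 9.61% of all genes were lower and 2.43% higher.

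The list of MiT factors and regulators of mTORC1 at the lysosome had 10 genes, 6 above 0 and 4 below (4 and 6 with a common median), with a median of 0.03. Of these, 3 had an unadjusted p under 0.05, all higher, where 4.76% of all genes were higher. With a common median 1 was higher and 1 lower, against 2.43% and 9.61% of all genes. Flcn, encoding folliculin, an activator of the Rag GTPases, gave 1311, 1692 and 1779 in wild-type against 1903, 2956 and 3434 in Dap12-deficient cultures. The lowest Dap12-deficient array was just above the highest wild-type array, with a log2 difference of 0.76 (SE 0.24, adjusted p = 0.338 in limma). With the myelin term it was 0.29 and with the term for Y-linked genes 2.30. Rragd, a Rag GTPase, gave 1044, 593 and 794 against 1249, 1222 and 1195, a difference of 0.62 (SE 0.22, adjusted p = 0.373 in limma). With the term for Y-linked genes it was 0.19 (unadjusted p = 0.77 in limma). For every gene fitted with it, that term cannot be told apart from the groups. Tfec, a MiT factor of myeloid cells, gave 174, 202 and 193 against 272, 245 and 266. Its difference was 0.43 (SE 0.18, adjusted p = 0.444 in limma), and 0.46 with the term for Y-linked genes (unadjusted p = 0.411 in limma). Fnip1, the partner of folliculin, lay above wild-type on all 3 arrays (0.37), and Lamtor1, which anchors the Rag GTPases, below (-0.32). Mitf and Tfe3 had -0.04 and 0.06.

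In hydrolase sorting, 4 of 6 genes were below 0, with a median of -0.22. Gnptab, the enzyme that starts the mannose phosphate tag of hydrolases, gave 292, 344 and 357 in wild-type against 249, 253 and 209 in Dap12-deficient cultures. The groups did not overlap, and the log2 difference of Gnptab was -0.46 (SE 0.19, adjusted p = 0.438 in limma). With the term for Y-linked genes, which cannot be told apart from the groups, it was -0.63 (unadjusted p = 0.285 in limma). The sorting receptor Sort1 (-0.32) and Gnptg (-0.20), a subunit of the same enzyme, also had all 3 arrays below wild-type. That made 3 of 6 genes below without overlap, where 8.85% of all genes lay below. Only Gnptab had an unadjusted p under 0.05 in limma, where 4.87% of all genes were lower. For Gnptg the nearest arrays were 44.9 and 44.5, and the difference was -0.072 without wild-type replicate 2. The receptor M6pr had -0.24 with overlapping arrays.

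**Figure D5:**
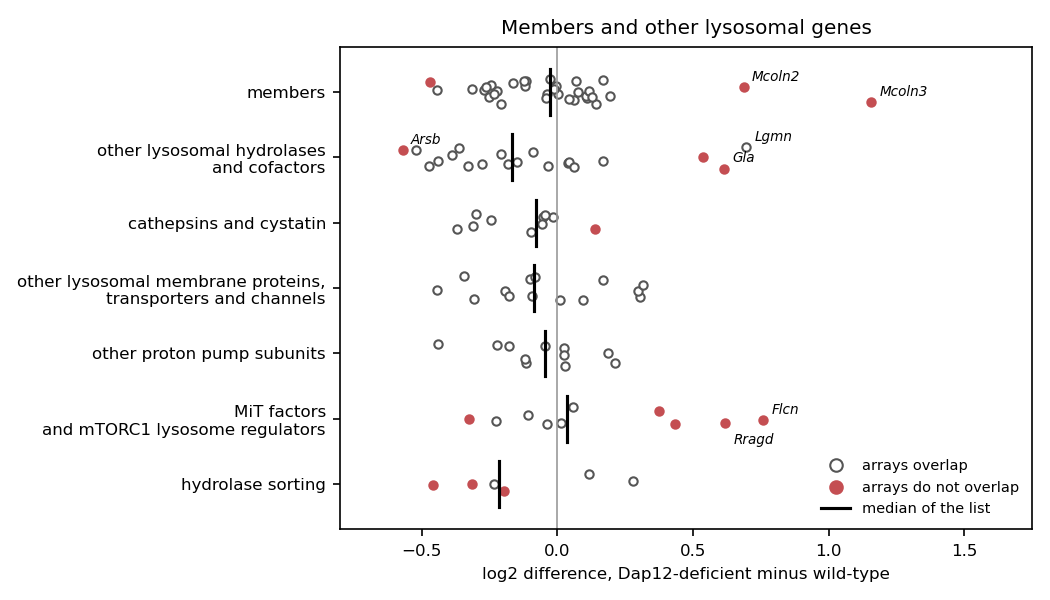
Log2 differences, Dap12-deficient minus wild-type, of the 33 member genes and of 6 lists of other lysosomal genes; each point is a gene, filled where the 3 arrays of a group do not overlap the other 3, and the vertical bar is the median of the list. Medians lie between -0.22 (hydrolase sorting) and 0.03 (MiT factors and mTORC1 regulators), and Mcoln3 has the highest value at 1.16.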

How the data were processed

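Per the labels' protocols, RNA was isolated with Trizol and RNeasy, and the label kit used 2 cycles of amplification, which can shorten transcripts. The authors deposited linear intensity values of 6 arrays, each counted here as 1 culture. GCOS is named in the submitters' processing notes, and its algorithm and detection calls were not stated. After trimming 2% of probe sets at each end, every array had a mean of 100.0, which shows scaling to 1 target.

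Controls, 64 of 45101 probe sets, were left out. The 27022 with a mean signal of at least 8.51, the 40th percentile, were tested on log2(signal + 16) with limma 3.58.1 in R 4.3.3 (lmFit, then eBayes with an intensity trend, two-sided, Benjamini-Hochberg), comparing 3 Dap12-deficient with 3 wild-type arrays and no covariate. Replicates carry numbers by order of deposit, which pair nothing. An exact permutation test of 3 against 3 arrays cannot go below 0.1 and was not used. The number of arrays limits precision. Promoters came from RefSeq (GRCm38.p6). The scripts' statistics were tested on simulated data. Plots used matplotlib 3.10.9.

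Members and lists were chosen with earlier results of these data known. Every member is named. From each list of other lysosomal genes the text names up to 3 with the smallest p among those whose arrays did not overlap, and the 2 with the smallest p where fewer than 2 did so, and from each marker list the brightest gene. Tyrobp is the targeted gene. Fnip1, Lamtor1, Mitf, Tfe3, M6pr, Lgmn, Tmem119, Fcrls, Olfml3, Wdr63, Lpar3 and the bound of 2000 were chosen after values were seen. Other settings tried were pseudocounts of 1 or 64, quantile normalization, arrays brought to a common median, the filter removed or set at the 60th percentile, a fit lacking the trend, added terms (the kind of title number, Y-linked genes, myelin genes), other choices of probe set, and each array left out.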

Additional observations from a re-analysis of the deposited data

How the results depend on the processing

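Over 18 alternatives, 0 members passed an adjusted p under 0.05 in limma. The members' median of -0.03 ranged from -0.10 to 0.03 when single arrays were left out. It was -0.14 with a common median and -0.13 with the term for Y-linked genes. The number of members with an unadjusted p under 0.05, which was 2, was 4 with a common median (Lipa and Ppt1 added), 4 with the myelin term (Man2b1 and Smpd1 added) and 5 with the mean of all tested probe sets of a gene (Laptm5, Atp6v1a and Atp6v1h added). It ranged from 2 to 4 when single arrays were left out. With the term for Y-linked genes it was 3, namely Scarb2, Cln3 and Tfeb, in a fit where that term cannot be told apart from the groups. Mcoln2 was then -0.055 (SE 0.55). The count of all probe sets past the adjusted threshold, 2 as reported, was 11 with the term for Y-linked genes, 5 with the myelin term and 2 to 172 when single arrays were left out, with 15 without Dap12-deficient replicate 1 and 172 without Dap12-deficient replicate 2. The count of other lysosomal genes with an unadjusted p under 0.05, which was 7, was 12 with a common median, 12 with the myelin term, 3 without wild-type replicate 2 and 4 without Dap12-deficient replicate 3; these alternatives were chosen for that list after the data were seen. No paired analysis was possible because the labels give the groups no shared replicate numbers. Differences of members near 0 changed sign under several alternatives, up to 12 of 33 with the myelin term.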
